A study of Mus musculus with 24 samples.

Results

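The genes described here code for the output factors of the liver clock and for factors that feed back on it: Dbp, Tef, Hlf, Nfil3, Rora, Ciart and Bhlhe40. They were taken by gene symbol from a table of RNA-seq counts for 22355 genes in mouse liver. All 7 had a row, and all 7 passed the filter on low counts with 11508 genes in all. Livers came from diet-induced obese mice in 3 groups of 8. One group received vehicle for 4 d and was taken 22 h after the last injection. The others received IUB288, a compound under a code name that acts on the glucagon receptor, over the same 4 d and were taken 4 h or 22 h after the last injection. The sources used here do not give strain, sex, age or the clock hour of collection. The 4 h and 22 h livers may therefore differ in time of day, and no vehicle livers were taken at 4 h. In the comparison of 4 h with vehicle, IUB288, the hours since injection and the hour of collection cannot be told apart. In that of 22 h with 4 h both groups received IUB288, and hours since injection and the hour of collection cannot be told apart. The IUB288 22 h and vehicle livers were matched in hours since injection.

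The clock of a cell is a loop in which CLOCK and BMAL1 switch on genes through E-box elements, among them the genes of their own repressors. Rhythm is passed on by a family of transcription factors, the PAR bZIP proteins DBP, TEF and HLF, which activate genes through D-box elements, and by NFIL3, which binds the same elements and represses. RORA activates genes with ROR elements, Arntl (the BMAL1 gene) and Nfil3 among them, in competition with the REV-ERB repressors that Nr1d1 and Nr1d2 code for. CIART and BHLHE40 act on the E-box side as repressors of CLOCK and BMAL1. In liver, PAR bZIP factors are known for driving daily rhythms of drug and lipid metabolism.

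Promoter sequences from RefSeq (GRCm38.p6), windows of 250 bases before a start, were held for 6 of the 7 members, in 7 windows. They were searched on both strands for the elements through which these factors and cAMP signals act. The start of a window was not always the outer end of the gene as printed below. The Nfil3 and Rora windows and the Tef window shown here lay inside the gene, and the Dbp and Ciart windows ran partly into it. Positions upstream count from the start of the window's own promoter. The E-box CACGTG stood in 6.02% of 32851 such windows, the D-box TTATGTAA in 0.819% and TTACGTAA in 0.113%, the ROR element core TAGGTCA in 2.23%, the cAMP response element TGACGTCA in 1.55% and its core TGACG, which overlaps the full element, in 17.8%. Ciart had 3 E-boxes, at 116 to 111, 58 to 53 and 44 to 39 bases upstream, and each Tef window had 1. Hlf had a full cAMP response element at 9 to 2 bases upstream. Nfil3 had a ROR element core at 12 to 6 bases upstream, read on the opposite strand, inside an annotated Nfil3 exon, and the cAMP response core, also on that strand, at 59 to 55. None of these letters stood in the Dbp and Rora windows. The Dbp window shared 159 bases with a Dbp exon, so only part of it lay before the printed gene start. Bases before the printed start of Rora were not searched. A match describes the letters only, and binding was not measured. Shown are stretches that hold matches, each 5′ to 3′ on the gene's strand with the match in capitals: Ciart at chr3:95882252-95882478 (minus strand), Tef at chr15:81811164-81811413 (plus), Hlf at chr11:90390918-90391167 (minus), and 30 bases around each Nfil3 match at chr13:52981040-52981069 and chr13:52981081-52981110 (minus).
Ciart E-boxes: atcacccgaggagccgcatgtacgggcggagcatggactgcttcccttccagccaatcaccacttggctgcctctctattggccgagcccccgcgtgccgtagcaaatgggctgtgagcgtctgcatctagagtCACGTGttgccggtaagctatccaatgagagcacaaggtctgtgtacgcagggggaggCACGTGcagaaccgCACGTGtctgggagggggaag
Tef E-box: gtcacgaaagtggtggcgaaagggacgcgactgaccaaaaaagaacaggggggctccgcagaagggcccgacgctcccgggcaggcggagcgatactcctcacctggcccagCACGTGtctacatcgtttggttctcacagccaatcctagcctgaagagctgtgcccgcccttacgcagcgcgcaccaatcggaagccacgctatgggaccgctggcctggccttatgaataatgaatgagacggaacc
Hlf cAMP response element: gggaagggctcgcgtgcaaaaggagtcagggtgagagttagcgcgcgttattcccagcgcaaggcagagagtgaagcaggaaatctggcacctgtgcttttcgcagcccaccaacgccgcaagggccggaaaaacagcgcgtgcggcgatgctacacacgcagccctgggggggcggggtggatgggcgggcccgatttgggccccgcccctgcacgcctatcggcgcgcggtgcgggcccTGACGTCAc
Nfil3 ROR element core: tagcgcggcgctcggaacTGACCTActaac
Nfil3 cAMP response core: gcggccgccgccCGTCAcggcggggctggc

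Library totals ran from 13.99 to 44.07 M counts, and the smallest count of a member in any library was 188 (Nfil3). One library stood apart: vehicle replicate 1 held 1381 CPM (the count scaled to library size, here by TMM) of Ucp1 and 160 CPM of Adipoq, adipocyte genes that reached at most 0.576 and 0.0784 CPM in the other 23 libraries. Alb, the hepatocyte albumin gene, was at 51694 CPM there, within the 34789 to 84251 CPM of the others. Without it no member's call changed: the 4 h log2 fold changes against vehicle were -1.18 for Dbp, -0.25 for Tef, -0.88 for Hlf, 1.98 for Nfil3, 0.72 for Rora, 0.010 for Ciart and 0.17 for Bhlhe40. The 22 h values in the same order were 0.18, 0.05, -0.22, 0.63, 0.35, 0.016 and -0.34. Shares of all genes, nearest genes and correlations below include this liver. The labels count mice as biological replicates. Libraries carried numbers 1 to 24 in their names, with 4 livers of each group among 1 to 12 and 4 among 13 to 24. The labels do not call these batches, and values within each set of 12 are given where a call differs.

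At 4 h after IUB288 the activators and the repressor of the D-box moved in opposite directions against vehicle. Dbp, Hlf and Tef were lower, Nfil3 and Rora were higher, and Ciart and Bhlhe40 did not pass the test. That made 5 of 7 members called by limma-voom at an adjusted p under 0.05, against 44.2% of the 11508 genes tested. The members called higher were 2 (background 21.8%) and those called lower 3 (background 22.4%). The 8 livers at 4 h lay wholly apart from the 8 vehicle livers in 4 members, Dbp, Hlf, Nfil3 and Rora, against 16.05% of genes. In bulk liver, less RNA per cell and fewer cells of an expressing type cannot be told apart.

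**Figure D1:**
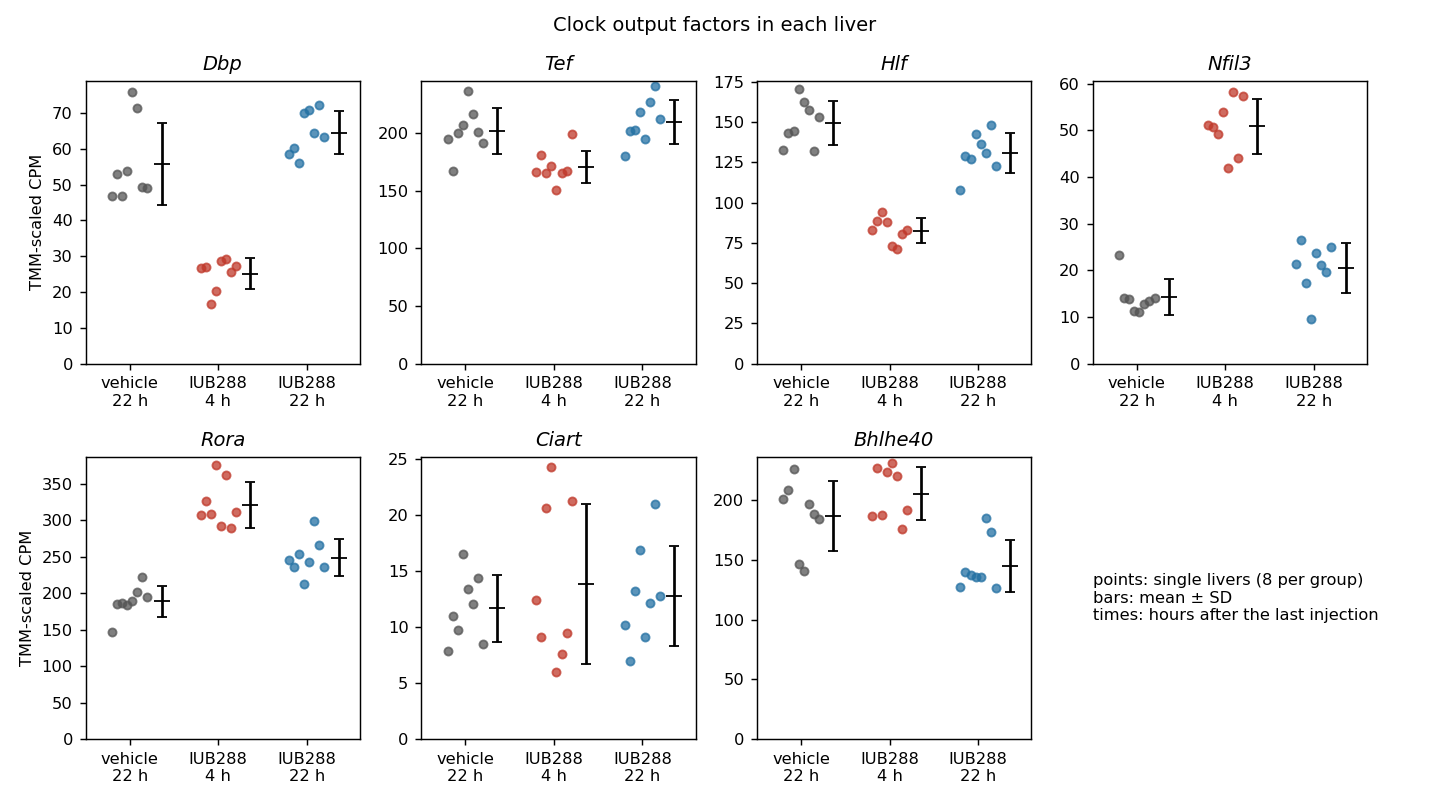
TMM-scaled CPM of the 7 genes in each liver (points) with mean ± SD (bars), for vehicle 22 h, IUB288 4 h and IUB288 22 h after the last injection, 8 livers each, on axes that start at 0. At 4 h, Dbp and Hlf sit below and Nfil3 and Rora above every vehicle liver, while the Ciart livers at 4 h spread from 5.97 to 24.3 CPM.

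Dbp (Entrez 13170, 7:45705100-45710203, plus strand, GRCm38.p6) codes for the founding PAR bZIP factor, whose RNA cycles steeply in liver. Its lowest, median and highest levels were 46.8, 51.3 and 76.0 CPM in vehicle, 16.6, 26.8 and 29.3 CPM at 4 h, and 56.1, 63.9 and 72.1 CPM at 22 h. Every 4 h liver was below every other liver, and vehicle replicates 5 and 6, at 76.0 and 71.4 CPM, were above the other 6 vehicle livers. The mean of 55.8 ± 11.4 CPM in vehicle (SD, n = 8) stood against 25.2 ± 4.42 CPM at 4 h, a log2 fold change of -1.15 ± 0.12 (SE; limma-voom adjusted p = 1.54e-08). At 22 h it stood at 64.5 ± 6.04 CPM, 0.22 ± 0.11 from vehicle, which did not pass (limma-voom adjusted p = 0.116). The interval of that difference ran from -0.0035 to 0.43. Without vehicle replicate 5 or 6 the 22 h difference did pass, at 0.29 and 0.27 (limma-voom adjusted p = 0.0287 and 0.0469). Between the IUB288 groups, 22 h was higher than 4 h by 1.36 ± 0.12 log2 units (limma-voom adjusted p = 1.56e-09). Exons of Sphk2 on the opposite strand share 539 bases with Dbp exons, 18.0% of their length, and the sources used here do not give the strand setting of the counting. Antisense gene models likewise share 193 bases with Tef exons, 82 with Rora and 118 with Bhlhe40, and without strand-specific counting reads of the paired genes could not be told apart there.

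Hlf (Entrez 217082, 11:90336535-90390917, minus strand) codes for the hepatic leukemia factor and was lower than vehicle at both times. Its lowest, median and highest levels were 132.0, 149.1 and 170.6 CPM in vehicle, 71.5, 82.7 and 94.0 CPM at 4 h, and 108.1, 129.9 and 147.9 CPM at 22 h. The 4 h livers lay below all 16 others, and 5 of the 8 livers at 22 h lay below all vehicle livers. The 4 h difference from vehicle was -0.86 ± 0.07 log2 units (SE, n = 8; limma-voom adjusted p = 2.61e-10), 1.81-fold lower. At 22 h Hlf was still lower than vehicle, by a log2 fold change of -0.20 ± 0.07 (limma-voom adjusted p = 0.0265). That call did not hold when vehicle replicate 4 or 5 or IUB288 22 h replicate 1 was left out (limma-voom adjusted p = 0.0612, 0.0544 and 0.0663) and with no filter on low counts (limma-voom adjusted p = 0.0800). Within libraries numbered 1 to 12 and 13 to 24 the value was -0.23 and -0.16 (limma-voom adjusted p = 0.164 and 0.190). From 4 h to 22 h Hlf was higher by 0.66 ± 0.07 (limma-voom adjusted p = 3.93e-08).

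Tef (Entrez 21685, 15:81802673-81826863, plus strand) codes for the thyrotroph embryonic factor and moved least of the PAR bZIP genes. It ranged over 167.2 to 236.7 CPM in vehicle (median 200.6), 150.7 to 199.5 CPM at 4 h (median 166.5) and 180.5 to 240.8 CPM at 22 h (median 207.9). The groups overlapped, with 5 of the 8 livers at 4 h below the lowest vehicle liver. The 4 h difference was -0.24 ± 0.07 log2 units (SE, n = 8; limma-voom adjusted p = 0.00473), and it was -0.19 within libraries numbered 1 to 12, where it did not pass (limma-voom adjusted p = 0.125), and -0.32 within 13 to 24 (limma-voom adjusted p = 0.0318). At 22 h the difference from vehicle was 0.06 ± 0.07, with an interval from -0.08 to 0.19 (limma-voom adjusted p = 0.534). From 4 h to 22 h Tef was higher by 0.30 ± 0.07 (limma-voom adjusted p = 0.00110). This call too was lost within libraries numbered 1 to 12 (0.25, limma-voom adjusted p = 0.0784) and held within 13 to 24 (0.38, limma-voom adjusted p = 0.0166).

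Nfil3 (Entrez 18030, 13:52967209-52982878, minus strand), the gene of the D-box repressor, had the largest 4 h change of the 7 members. It ranged over 11.0 to 23.4 CPM in vehicle (median 13.7), 41.9 to 58.1 CPM at 4 h (median 50.95) and 9.51 to 26.5 CPM at 22 h (median 21.3). Every 4 h liver was above all 16 others. The highest vehicle value was that of replicate 1, the library with adipocyte transcripts, and the other 7 vehicle livers were at 14.1 CPM or below. The mean went from 14.3 ± 3.87 to 50.8 ± 5.80 CPM at 4 h (SD, n = 8), 3.58-fold higher, or 1.84 ± 0.16 log2 units (limma-voom adjusted p = 1.07e-09). Leaving out vehicle replicate 1 gave 1.98.

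At 22 h Nfil3 stood at 20.6 ± 5.35 CPM, 0.49 ± 0.17 log2 units above vehicle (SE, n = 8; limma-voom adjusted p = 0.0305). Without vehicle replicate 1 that value was 0.63 ± 0.16 (limma-voom adjusted p = 0.00442). The 22 h call was lost when vehicle replicate 4, 5 or 6 or IUB288 22 h replicate 2, 5 or 8 was left out, with limma-voom adjusted p from 0.0532 to 0.0701, and in a fit of only the 16 libraries of the comparison (limma-voom adjusted p = 0.0625). Within libraries numbered 1 to 12, which hold both vehicle replicate 1 and the lowest 22 h liver (replicate 4), the difference was 0.18 (limma-voom adjusted p = 0.719), and within 13 to 24 it was 0.83 (limma-voom adjusted p = 0.00214). Between 4 h and 22 h Nfil3 was lower, by a log2 fold change of -1.35 ± 0.15 (limma-voom adjusted p = 1.01e-07).

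Rora (Entrez 19883, 9:68653404-69388246, plus strand), the gene of an activator at ROR elements, was higher at both times. It ranged over 147.3 to 221.8 CPM in vehicle (median 188.2), 289.3 to 375.4 CPM at 4 h (median 309.5) and 212.1 to 298.6 CPM at 22 h (median 243.7). At 4 h all livers were above all vehicle livers, and at 22 h 7 of 8 were. The 4 h difference was 0.77 ± 0.07 log2 units (SE, n = 8; limma-voom adjusted p = 6.56e-09), 1.70-fold. The 22 h difference was 0.40 ± 0.07 (limma-voom adjusted p = 0.000198). Leaving out vehicle replicate 1, the lowest Rora value of all livers, gave 0.72 and 0.35 (limma-voom adjusted p = 3.60e-09 and 0.000245). The 22 h livers were lower in Rora than the 4 h livers, by a log2 fold change of -0.37 ± 0.07 (limma-voom adjusted p = 0.000391). That difference was -0.46 within libraries numbered 1 to 12 (limma-voom adjusted p = 0.0123) and -0.25, not called, within 13 to 24 (limma-voom adjusted p = 0.0858).

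Bhlhe40 (Entrez 20893, 6:108660629-108666925, plus strand), the gene of an E-box repressor also known as DEC1, differed from vehicle at 22 h. Its lowest, median and highest levels were 140.1, 192.5 and 225.3 CPM in vehicle, 175.3, 205.2 and 230.4 CPM at 4 h, and 126.2, 136.6 and 184.6 CPM at 22 h. At 22 h 6 of 8 livers were below the lowest vehicle liver, and 7 of 8 were below the lowest 4 h liver. The 4 h difference was 0.15 ± 0.10 log2 units with an interval from -0.05 to 0.35, and did not pass (limma-voom adjusted p = 0.226). The 22 h difference from vehicle was -0.36 ± 0.10 (SE, n = 8; limma-voom adjusted p = 0.00556), and that from 4 h -0.50 ± 0.10 (limma-voom adjusted p = 0.000223). Within libraries numbered 1 to 12 both were called, at -0.51 and -0.59 (limma-voom adjusted p = 0.0178 and 0.00603). Within 13 to 24 they were -0.19 and -0.39, and neither was called (limma-voom adjusted p = 0.358 and 0.0710).

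Ciart (Entrez 229599, 3:95878500-95882257, minus strand), the gene of the repressor CHRONO and the member with 3 E-boxes in its window, did not pass in any comparison. Its lowest, median and highest levels were 7.88, 11.5 and 16.5 CPM in vehicle, 5.97, 10.9 and 24.3 CPM at 4 h, and 7.00, 12.5 and 21.0 CPM at 22 h. The 4 h livers held both the highest and the lowest value of all 24. Among them replicates 3, 4 and 8 were at 20.6, 24.3 and 21.3 CPM, above every vehicle liver, and the other 5 were at 12.4 CPM or below. The coefficient of variation at 4 h was 51.4%, against 25.6% in vehicle and 34.8% at 22 h, and the difference in spread was not tested. The 4 h value was 0.11 log2 units from vehicle with an interval from -0.44 to 0.65 (limma-voom adjusted p = 0.770). At 22 h it was 0.11 with an interval from -0.43 to 0.65 (limma-voom adjusted p = 0.774), and from 4 h to 22 h it was 0.0053 with an interval from -0.53 to 0.54 (limma-voom adjusted p = 0.991). Changes in either direction within these intervals are compatible with the data.

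Against vehicle at matched hours, 22 h after IUB288, 4 of 7 members were called: Nfil3 and Rora higher, Hlf and Bhlhe40 lower. The background was 36.8% of genes, with 17.6% higher and 19.2% lower, so 2 members stood in each direction. No member's 22 h livers lay wholly apart from the vehicle livers, as 7.40% of genes did. The 4 h and 22 h values share the 8 vehicle livers. In the direct comparison of 22 h with 4 h, which uses no vehicle liver, 6 of 7 members were called, against 29.2% of genes. Dbp, Tef and Hlf were higher (background 14.3%), and Nfil3, Rora and Bhlhe40 were lower (background 14.97%). The groups lay wholly apart in Dbp, Hlf and Nfil3, against 10.7% of genes. Hlf, Nfil3 and Rora had 22 h means between those of 4 h and vehicle, and the 22 h mean of Bhlhe40 was below both.

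**Figure D2:**
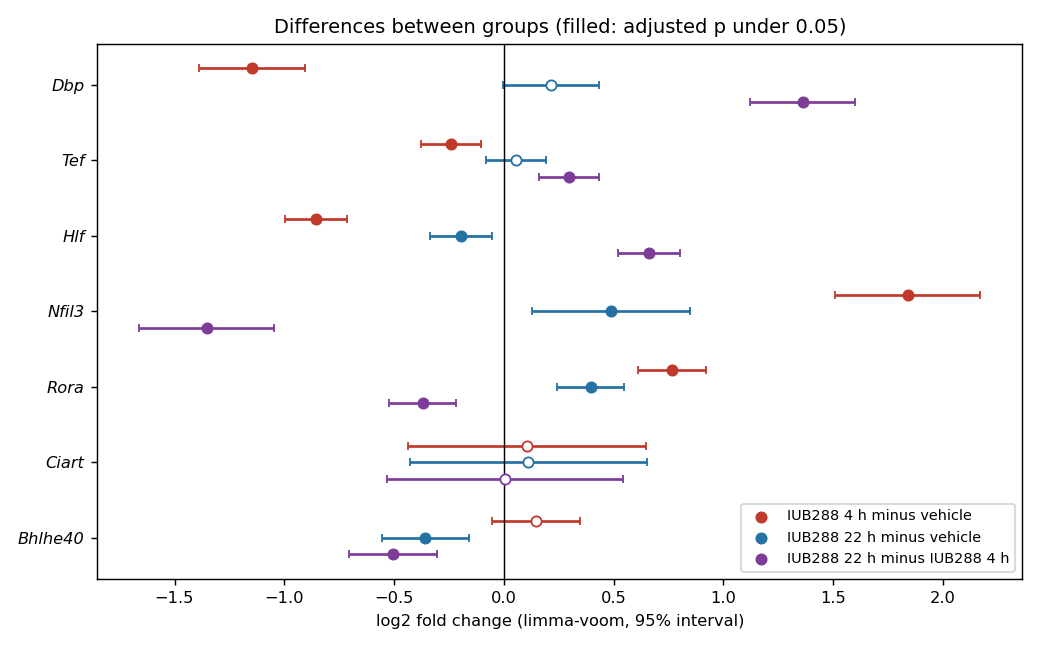
Log2 fold changes of the 7 genes (points, limma-voom) with 95% intervals (bars) for IUB288 4 h minus vehicle, IUB288 22 h minus vehicle and IUB288 22 h minus IUB288 4 h, with filled points for an adjusted p under 0.05. Nfil3 at 1.84 and Dbp at -1.15 mark the ends at 4 h, and the intervals of Ciart cross 0 in all 3 comparisons.

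Several markers of other liver cell types were lower after IUB288. Of all genes tested, 22.4% were called lower at 4 h and 19.2% at 22 h, and 21.8% and 17.6% higher. A count such as 1 of 6 below is near these shares. Of 8 endothelial markers 3 were lower at 4 h and 8 at 22 h, and their summed level ran from 254.5 to 556.1 CPM in vehicle, 286.0 to 341.5 CPM at 4 h and 123.5 to 320.0 CPM at 22 h. Of 7 stellate and fibroblast markers 4 and 6 were lower, with sums of 708.1 to 1323, 389.6 to 668.3 and 211.4 to 634.8 CPM, so that all 16 IUB288 livers lay below all vehicle livers. Of 6 lymphocyte markers 2 and 5 were lower, with sums of 39.1 to 76.1, 29.7 to 49.3 and 16.4 to 52.4 CPM. Of 6 Kupffer cell and macrophage markers 1 and 3 were lower, with sums of 199.5 to 754.0, 181.8 to 348.5 and 73.0 to 364.8 CPM. Of 5 cholangiocyte markers 2 and 2 were lower, with sums of 93.4 to 530.7, 61.2 to 248.4 and 71.8 to 175.4 CPM. Of 5 erythroid markers 4 and 4 were lower and 1 and 1 higher, with sums of 212.2 to 469.8, 180.4 to 279.5 and 123.1 to 213.9 CPM. Of 7 hepatocyte markers 3 were higher and 3 lower at each time, with sums of 68480 to 109086 CPM in vehicle (median 94052), 67055 to 90753 CPM at 4 h (median 72468) and 53033 to 79440 CPM at 22 h (median 67399). Of 3 adipocyte markers tested (7 listed) 1, Elovl3, which is also among the ROR element genes below, was higher and 2, Cidea and Cfd, lower at 4 h, and these 2 were lower at 22 h. Their sums over the 7 ran from 32.9 to 2354 CPM in vehicle, 84.7 to 140.3 CPM at 4 h and 14.2 to 131.9 CPM at 22 h, and Ucp1, Adipoq, Plin1 and Lep had medians under 0.1 CPM. Without vehicle replicate 1 the highest vehicle sums were 71.2 CPM for adipocyte, 483.9 for endothelial, 1037 for stellate and fibroblast and 70.03 for lymphocyte markers, and the lowest were 79520 CPM for hepatocyte and 192.8 for cholangiocyte markers. Those of Kupffer and erythroid markers did not change. The counts were then the same, except that 3 lymphocyte markers were lower at 22 h, and of the endothelial markers 3 were again lower at 4 h but the calls of Pecam1, Cdh5, Stab2 and Lyve1 changed. The part of these cells in the members' differences was not tested.

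Levels of different genes were compared per kilobase of annotated exon (GENCODE M21), since longer transcripts collect more reads. In vehicle the order of the mean levels was Bhlhe40 with 39.5 ± 6.23 CPM per kb, Tef with 25.7 ± 2.56, Hlf with 22.4 ± 2.06, Dbp with 18.7 ± 3.80, Rora with 14.5 ± 1.60, Nfil3 with 7.04 ± 1.91 and Ciart with 5.17 ± 1.32 (SD, n = 8). Each neighbouring pair in that order had overlapping ranges over the livers, which for Rora and Nfil3 rested on replicate 1. Without it the lowest Rora level was 14.1 and the highest Nfil3 level 6.96 CPM per kb, and the other pairs still overlapped. At 4 h the order was Bhlhe40 (43.5 ± 4.68 CPM per kb), Nfil3 (25.1 ± 2.86), Rora (24.6 ± 2.41), Tef (21.7 ± 1.81), Hlf (12.4 ± 1.16), Dbp (8.41 ± 1.48) and Ciart (6.12 ± 3.15). There Bhlhe40 stood clear of Nfil3, Tef clear of Hlf and Hlf clear of Dbp, while Nfil3, Rora and Tef overlapped, as did Dbp and Ciart. At 22 h the order was Bhlhe40 (30.8 ± 4.61 CPM per kb), Tef (26.7 ± 2.41), Dbp (21.5 ± 2.02), Hlf (19.6 ± 1.84), Rora (19.0 ± 1.95), Nfil3 (10.1 ± 2.64) and Ciart (5.66 ± 1.97). Of the neighbours at 22 h, Rora and Nfil3 did not overlap and the others did.

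DBP, TEF, HLF and NFIL3 meet at the same element, so their transcripts were also set against each other within each liver. The share of Nfil3 in the summed CPM per kb of these 4 genes ran from 6.40% to 16.04% in vehicle (median 9.78%), from 34.2% to 40.9% at 4 h (median 37.4%) and from 6.07% to 16.8% at 22 h (median 13.8%). Every 4 h liver was above all 16 others, and the highest vehicle share was again that of replicate 1, without which vehicle ran up to 10.3%. The sum of the 3 activators was 66.7 ± 7.34 CPM per kb in vehicle, 42.5 ± 2.39 at 4 h and 67.8 ± 5.62 at 22 h (SD, n = 8). The sum of all 4 was 73.8 ± 6.44, 67.6 ± 4.60 and 77.9 ± 5.33 CPM per kb. These sums follow from the members' levels, describe RNA and not protein, and were given no test.

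**Figure D3:**
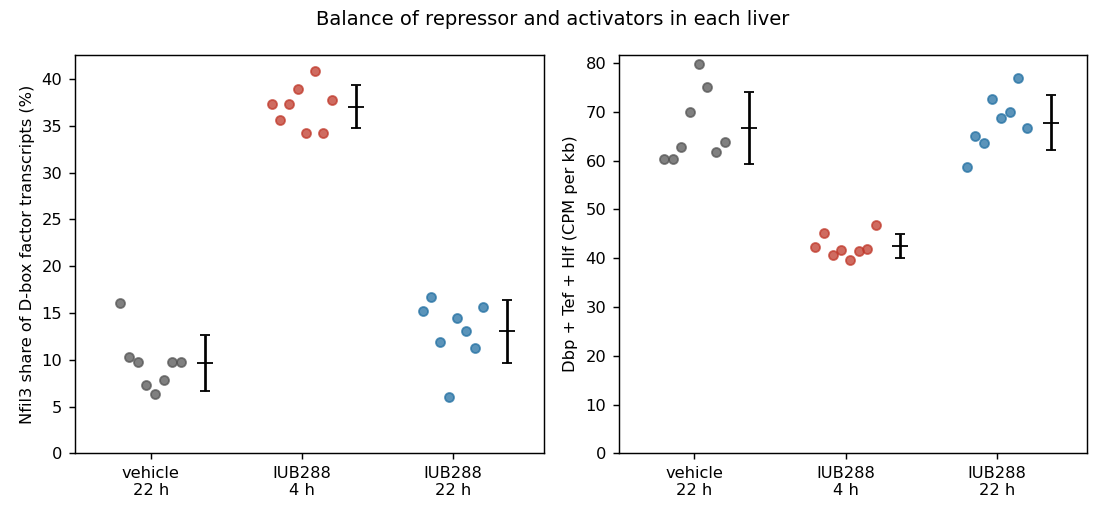
Left, the share of Nfil3 (%) in the summed transcripts per kb of Dbp, Tef, Hlf and Nfil3, and right, the sum of Dbp, Tef and Hlf (CPM per kb), in each liver (points) with mean ± SD (bars), 8 livers per group. The 4 h livers sit at 34.2% to 40.9% on the left, above all others, and lower than the others on the right.

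Around these outputs, the core clock loop changed in both directions. Of 17 loop genes tested (20 listed), 7 were higher, 6 lower and 4 not called at 4 h, with a median log2 fold change of 0.08 against -0.07 over all genes. Of all genes tested, 21.8% were called higher and 22.4% lower at 4 h, which also stands beside the lists below. Arntl, the BMAL1 gene, averaged 2.88 ± 1.05 CPM in vehicle and 13.6 ± 3.44 CPM at 4 h (SD, n = 8), 2.31 log2 units higher (limma-voom adjusted p = 1.91e-09), and was at 3.60 ± 1.36 CPM at 22 h. Cry1, a repressor of CLOCK and BMAL1, went from 11.9 ± 3.24 to 32.2 ± 6.18 CPM at 4 h (1.499 log2 units, limma-voom adjusted p = 7.57e-08) and was below vehicle at 22 h, at 8.14 ± 3.38 CPM (-0.57, limma-voom adjusted p = 0.0364). Per3, of the PERIOD family, went from 15.7 ± 4.18 to 5.75 ± 1.55 CPM at 4 h (-1.42, limma-voom adjusted p = 1.04e-07).

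At 22 h against vehicle 3 loop genes were higher, 5 lower and 9 not called, with a median of -0.22 (all genes -0.02). Of all genes tested, 17.6% were called higher and 19.2% lower at 22 h, which also stands beside the lists below. The REV-ERB genes were among the higher ones, Nr1d1 by 0.63 and Nr1d2 by 0.30 (limma-voom adjusted p = 0.00283 and 0.00177). Btrc, whose protein marks PERIOD proteins for breakdown, differed by -0.26 (limma-voom adjusted p = 0.00230). From 4 h to 22 h 3 were higher, 8 lower and 6 not called, with a median of -0.20 (all genes -0.02). In that comparison 14.3% of all genes tested were called higher and 14.97% lower, here and beside the lists below. Nr1d1 was at 53.1 ± 15.2 CPM in vehicle, 31.0 ± 8.31 at 4 h and 81.9 ± 13.1 at 22 h, lower and then higher than vehicle, and rose by 1.41 log2 units from 4 h to 22 h (limma-voom adjusted p = 2.68e-07).

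Most genes of the ROR element list were higher at 4 h. Of 10 tested (13 listed) 7 were higher (background 21.8%), 1 lower and 2 not called, with a median log2 fold change of 1.19 (all genes -0.07). Without the member Nfil3, 6 of 9 were higher (median 0.88). Arntl, Clock, Npas2 and Cry1 are also in the core clock loop list, and Cry1 is also in the E-box list, so the lists are not independent. The part of Rora in these differences was not tested. G6pc, the last enzyme of glucose release from liver, averaged 280.0 ± 102.0 CPM in vehicle and 1377 ± 261.5 CPM at 4 h (SD, n = 8), 2.40 log2 units higher (limma-voom adjusted p = 6.39e-07). At 22 h 3 were higher, 1 lower and 6 not called, with a median of 0.32. Without Nfil3, 2 of 9 were higher, 1 lower and 6 not called (median 0.29). Cyp7b1, an oxysterol hydroxylase, was higher at 22 h by 1.32 and Clock by 0.29 (limma-voom adjusted p = 0.00119 and 0.0132), while Cry1 was the lower one. From 4 h to 22 h 1 was higher, 6 lower and 3 not called, with a median of -0.82, and G6pc was among the lower ones (-1.99, limma-voom adjusted p = 1.65e-05). Without Nfil3, 1 of 9 was higher, 5 lower and 3 not called, with a median of -0.43.

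Known liver targets of the PAR bZIP factors moved both ways at 4 h, when the activators were low and Nfil3 was high. Of 13 tested, 5 were higher, 4 lower and 4 not called, with a median of -0.09 (all genes -0.07). Nr1i3, the gene of the drug receptor CAR, averaged 125.1 ± 25.9 CPM in vehicle and 32.3 ± 6.17 CPM at 4 h (SD, n = 8), a log2 fold change of -1.97 (limma-voom adjusted p = 2.17e-09). It stood at 79.6 ± 28.9 CPM at 22 h, 1.26 above 4 h (limma-voom adjusted p = 4.49e-06). Ppara, the fatty acid receptor gene, differed by -0.59 at 4 h, and Por, which passes electrons to cytochromes P450, by 0.93 (limma-voom adjusted p = 1.59e-06 and 3.66e-06). At 22 h against vehicle 5 were higher, 3 lower and 5 not called, with a median of -0.19. Cyp2a4 and Cyp2a5, which code for steroid and coumarin hydroxylases, were higher by 3.22 and 1.63, and Cyp2c50 differed by -1.96 (limma-voom adjusted p = 6.20e-07, 1.38e-07 and 2.52e-05). The livers varied widely in Cyp2a4 at 22 h, at 404.1 ± 334.6 CPM against 33.3 ± 7.54 CPM in vehicle. Cyp2a5 was at 1299 ± 307.2 CPM against 434.1 ± 158.8 CPM. Cyp2a4 and Cyp2a5 are near-identical copies whose reads the counting could have split between them. From 4 h to 22 h 2 were higher, Nr1i3 and Cyp2a5, 0 were lower by limma-voom (also 0 at an unadjusted p under 0.05) and 11 were not called, with a median of 0.19 (all genes -0.02).

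E-box genes of CLOCK and BMAL1, 5 of which are members, were also mixed. Of 14 tested (17 listed) 3 were higher, 7 lower and 4 not called at 4 h, and 3, 4 and 2 of the 9 that are not members. All of these 9 but Wee1 are also in the core clock loop list. Wee1, whose kinase holds back cell division, averaged 46.2 ± 4.14 CPM in vehicle and 15.04 ± 2.42 CPM at 4 h (SD, n = 8), a log2 fold change of -1.63 (limma-voom adjusted p = 2.29e-12), and was at 34.1 ± 5.16 CPM at 22 h. That placed Wee1 below vehicle at both times, the latter by a log2 fold change of -0.44 (limma-voom adjusted p = 0.000359). At 22 h against vehicle 2 were higher, 7 lower and 5 not called, and from 4 h to 22 h 6 were higher, 5 lower and 3 not called. Of the 9 that are not members, 2 were higher, 5 lower and 2 not called at 22 h. From 4 h to 22 h these numbers were 3, 4 and 2. The medians of the 14 were -0.12, -0.27 and 0.06 in the 3 comparisons, against -0.07, -0.02 and -0.02 over all genes. Without the members the medians of the 9 were 0.0036, -0.37 and 0.045. Without vehicle replicate 1, no call in the loop, ROR element and E-box lists changed in the comparisons with vehicle. Among PAR bZIP targets Acot4 then joined those lower at 4 h and Acot3 those lower at 22 h, for 5 and 4 lower. The median log2 fold changes of the loop, ROR element, PAR bZIP target and E-box lists, members included, were then 0.05, 1.20, -0.13 and -0.13 at 4 h. At 22 h they were -0.12, 0.37, -0.24 and -0.28.

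**Figure D4:**
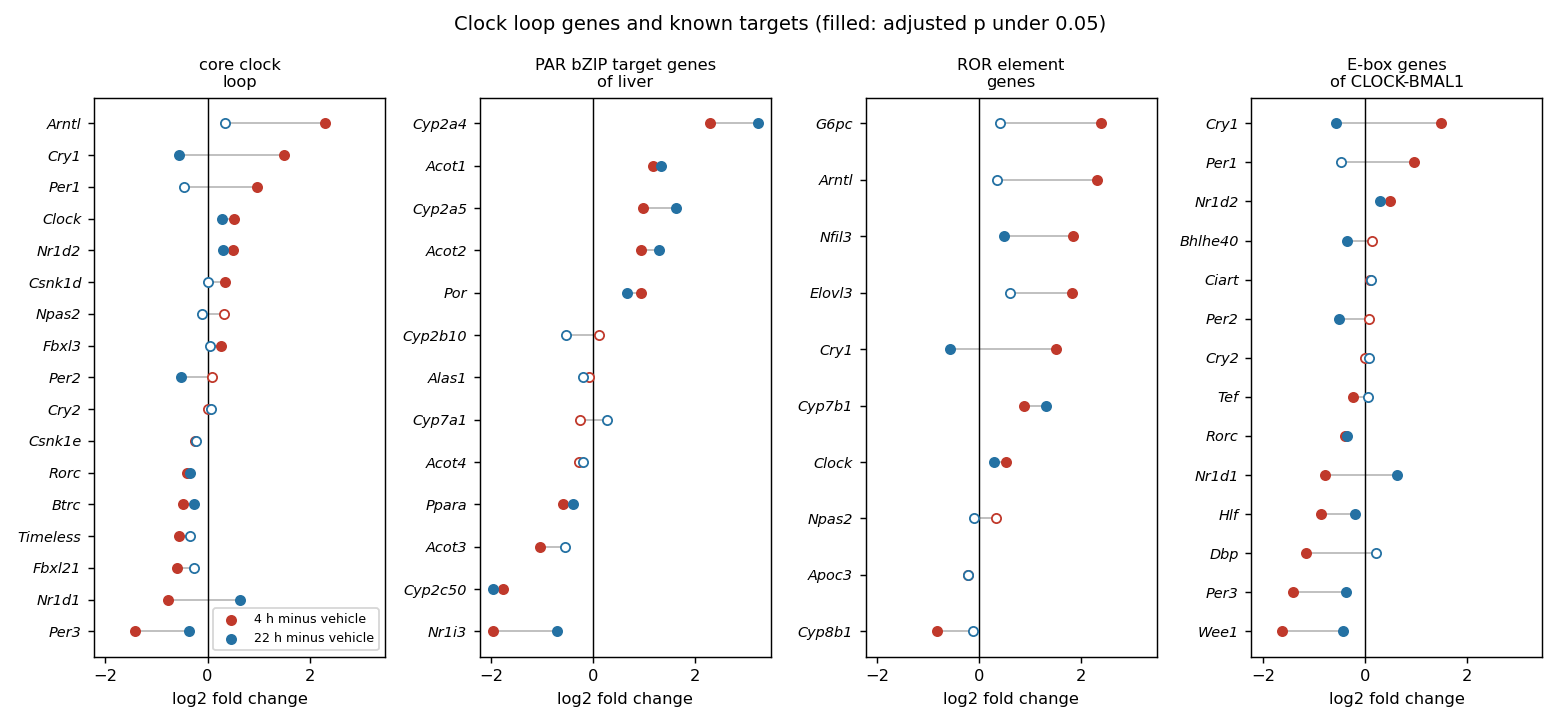
Log2 fold changes of the tested genes of 4 lists at 4 h (red) and 22 h (blue) minus vehicle, joined by a line per gene and ordered by the 4 h value, with filled points for a limma-voom adjusted p under 0.05. Among ROR element genes 7 of 10, the member Nfil3 among them, are filled to the right of 0 at 4 h and 1, Cyp8b1, is filled to the left.

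Genes whose pattern lay nearest to each member were sought among 6153 genes with a mean of at least 5 CPM. Members and gene models without an established name, such as Gm numbers and Rik, were left out of these. Nearness was the root mean square difference of log2 CPM, centred per gene, over the 24 libraries. For Dbp the nearest genes were Plekhg6 (0.23), Cited2 (0.25) and Nr3c2 (0.26), all nearer to Dbp than Hlf, the nearest member (0.39). Tef lay nearest to Hp1bp3 (0.11), Ogt (0.12) and Pls3 (0.12). For Hlf the nearest were Irf2 (0.13), Hykk (0.14) and Stard5 (0.16). The nearest to Nfil3 were Slc25a51 (0.32), Slc3a2 (0.32) and Atp2a2 (0.34), and the nearest member was Rora (0.60). Slc25a51, the gene of the mitochondrial NAD carrier, had means of 124.4, 404.7 and 145.5 CPM in vehicle, 4 h and 22 h. Rora lay nearest to Kif21a (0.12), Rbm33 (0.12) and Nags (0.13). Bhlhe40 lay nearest to Arf4 (0.17), Rab1a (0.18) and Tmem263 (0.19). Ciart lay nearest to Aldh1l1 (0.37), Akr1d1 (0.39) and Igf1 (0.39). The root mean square of the members' own centred values was 0.64 for Dbp, 0.18 for Tef, 0.39 for Hlf, 0.85 for Nfil3, 0.34 for Rora, 0.53 for Ciart and 0.28 for Bhlhe40. These distances mix differences between groups with those between livers of one group.

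Within groups, the members were compared over the 8 livers of each group, for 21 pairs and 3 groups. Of the 63 relations of log2 CPM, 11 had an unadjusted exact permutation p under 0.05 by Pearson's r and 8 by Spearman's rho (two-sided), and 0 passed after Benjamini-Hochberg adjustment (lowest adjusted exact permutation p = 0.275 and 0.288). Values of r ran from -0.78 to 0.80, and 7 of 21 pairs had the same sign in all 3 groups. Dbp and Hlf, both lower at 4 h, had r of 0.60, -0.78 and 0.78 in vehicle, 4 h and 22 h livers (unadjusted exact permutation p = 0.122, 0.0263 and 0.0172). Adjusted over the 63 relations the exact permutation p of r was 0.406, 0.275 and 0.275. Their rho was 0.62, -0.76 and 0.86 (unadjusted exact permutation p = 0.115, 0.0368 and 0.0107), and r without the 2 livers farthest from the median of Dbp was 0.61, -0.74 and 0.85.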

How the data were processed

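Liver RNA of 24 mice, 8 per group, was sequenced from KAPA mRNA libraries, per the labels' protocols. The authors deposited 1 table of read counts per gene, whole numbers without normalization. The submitters' processing notes name cutadapt, GSNAP and the build GRCm38. Their versions, the counter, the annotation and the strand setting are not given in the sources used here. The table ends partway through the Entrez numbers in text order, and genes past that point, such as Bhlhe41, were not analysed here.

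TMM scaling was coded in R 4.3.3 (trims of 30% and 5%). A filter by group (minimum count 10, total 15) kept 11508 genes with 99.9% of counts. One limma-voom model (limma 3.58.1, offset 0.5) held the 3 group means with all 24 libraries, with 21 residual and 4.08 prior degrees of freedom. P-values were adjusted by Benjamini-Hochberg across the genes of each comparison, and 0.05 was the threshold. A count test planned first was not run, since an automated check did not read the layout of the table as counts. The fit was tested on simulated data. Within groups no library was a copy of another (84 pairs, chi-square per degree of freedom 21.0 or more). Errors after ± are SD for levels and SE for log2 fold changes, and intervals are 95%.

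The members and lists were chosen with earlier results of these data known. Named genes were the members, from each list up to 3 genes with the smallest p per comparison among those called with at least 1 CPM, and the 3 genes nearest in pattern to each member. Adjusted and unadjusted p for relations within groups came from exact permutation (Python 3.11.15, SciPy 1.17.1). Alternatives were other scalings, filters, weights, blocks and left-out libraries, and, chosen after seeing the data, fits within libraries numbered 1 to 12 and 13 to 24.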

Additional observations from a re-analysis of the deposited data

Results flagged for a closer look

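Nfil3 in vehicle replicate 1 stood at 23.4 CPM, farther from the other 7 vehicle livers than Dixon's 95% limit allows. It was the only such value among 21 combinations of member and group, and chance gives about 1 in 20. The same library held adipocyte transcripts (Ucp1 at 1381 CPM, at most 0.576 CPM in the other 23 libraries), and their part in the Nfil3 value was not tested. The 4 h and 22 h differences from vehicle themselves differed in 6 members, as tested by the comparison of 22 h with 4 h in limma-voom. The log2 fold changes were 1.36 for Dbp, 0.30 for Tef, 0.66 for Hlf, -1.35 for Nfil3, -0.37 for Rora and -0.50 for Bhlhe40. Both groups received IUB288, and the hours since the last injection and the hour of collection cannot be told apart in these differences.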

How the results depend on the processing

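Over 735 alternative values of single members, 696 kept direction and side of the threshold, 19 lost their call, 2 gained one and 18 changed sign. Some of the 735 left out a library outside the comparison, which hardly moves the value. Dbp at 22 h against 4 h, for example, stayed at 1.36 without vehicle replicate 1. The 696 therefore overstate how far the values were put to the test. The values that changed sign were all of Ciart, apart from 1 of Tef, and none was called. Sample quality weights gave -0.0041 for Tef at 22 h against vehicle, and -0.0689 and -0.0144 for Ciart at 4 h and 22 h against vehicle. Ciart at 22 h against 4 h was -0.0402 with the replicate block, -0.0071 with the number set (1 to 12, 13 to 24) in the model, -0.0164 with a limma trend on log2 CPM and -0.41 within libraries numbered 1 to 12. At 4 h against vehicle it was -0.31 within 13 to 24. Leaving out 1 library, Ciart ran from -0.0267 to 0.26 at 4 h and from -0.15 to 0.14 at 22 h against 4 h. The cause was not tested. Members called at 22 h against vehicle ran from 2 to 4 of 7 when 1 library was left out. There were 2 without vehicle replicate 4, where 4129 of 11660 genes were called. Within each number set there were also 2, Rora and Bhlhe40 within 1 to 12 and Nfil3 and Rora within 13 to 24. Within libraries numbered 1 to 12, 2911, 1228 and 1467 genes were called in the 3 comparisons, against 5091, 4234 and 3366, and within 13 to 24 3167 at 4 h; these fits had fewer samples. With the replicate block 5422, 4396 and 3430 genes were called, and 5, 4 and 6 members as without it. Same-numbered libraries showed little shared deviation (24 pairs, r from -0.22 to 0.13, 5 best with their own number). These correlations cannot show whether the numbers mark a pairing of livers. The planned count tests with other tools were not run.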
